A study of Mus musculus with 36 samples.

Results

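Natural killer (NK) cells read surface receptors through tyrosine phosphorylation, and 9 genes that set its balance were followed through 36 mouse RNA-seq libraries. They were the tyrosine phosphatase genes Ptpn6 (SHP-1), Ptpn11 (SHP-2), Ptpn22 and Ptprc (CD45), the lipid phosphatase gene Inpp5d (SHIP-1), and the kinase genes Csk, Lck, Fyn and Lyn. These members, and the pathway lists used below, were chosen with earlier results of these data known. Counts of genes called among them are therefore a description. Rows were taken by exact match of the gene symbol. All 9 were found once in each of the 4 deposited tables, among 32940 genes in the table of sorted subsets and 56923 genes in each of the other 3.

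In NK cells the Src-family kinases Lck, Fyn and Lyn phosphorylate tyrosines in the tails of receptors and their adaptors. Inhibitory Ly49 receptors and NKG2A, once phosphorylated on their ITIM motifs, recruit SHP-1, SHP-2 or SHIP-1, which remove phosphate from signalling proteins such as Vav1 or from the lipid PIP3. Csk phosphorylates the inhibitory tail tyrosine of Src kinases, and CD45 removes that phosphate. Ptpn22 encodes a phosphatase that partners with Csk and removes the activating phosphate of Src kinases. These are statements on proteins, while the values below are transcript levels.

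The study set functional NK cells beside desensitized ones. In the first experiment, mature CD27-CD11b+ NK cells were sorted from spleens of wild-type C57BL/6 mice (B2m+/+, here WT) and of B2m-/- mice. Without B2m, most MHC class I is missing from the surface of every cell of the animal, so the sorted inhibitory receptors meet little ligand. The subsets were sorted on 3 inhibitory receptors: TP cells had Ly49C, Ly49I and NKG2A together, SP cells had Ly49I without Ly49C or NKG2A, and TN cells lacked all of them. Each of the 6 groups had 3 libraries. The second experiment used NK cells purified from WT splenocytes kept 22 h with vehicle or with ionomycin, an ionophore that lets calcium into the cytosol, with 3 libraries a group. The third used WT splenic NK cells after 48 h in medium alone or on plates coated with a pair of antibodies to activating receptors, again with 3 libraries a group. One pair bound NKp46 with NKG2D and the other NKp46 with DNAM-1. The last held 3 libraries of CD27-CD11b+ NK cells from tumours of B2m-/- MC38 colon carcinoma cells, 10 days after these were placed under the skin of C57BL/6 mice. The labels call the libraries of a group biological replicates and do not name single animals, so p-values measure the spread between these libraries. For 6 of the 9 antibody libraries the title and the named table column give different groups. The columns were followed.

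Levels are in TPM, which divides reads by transcript length and scales each library to a fixed total. The listed values sum to 1000000 in 3 tables and to 934292 to 948786 in the subset table, which lists fewer genes. Sequencing depth is unknown from TPM, and libraries listed 12290 to 18096 genes above 0. All 8 NK markers examined, among them Ncr1 and Klrb1c, were present in every group, with summed levels from 4956 to 20461 TPM. B2m stood between 2915 and 3420 TPM in WT subset libraries and between 73.9 and 128.5 TPM in B2m-/- ones. The 3 B2m-/- TP libraries also held transcripts from the plasma cell and neutrophil lists (Igha 70.5 to 169 TPM, S100a9 13.2 to 95.1 TPM). Jchain (13.5 to 18.8 TPM), S100a8 (6.99 to 33.3 TPM) and Ngp (17.8 to 40.0 TPM) were found there too. Sdc1 and Ly6g were near 0 in these libraries, at most 0.1 and 0.51 TPM. S100a9 was also found in replicate 3 of vehicle and of ionomycin, where Ly6g was at 0. In bulk RNA, fewer cells of a type and less RNA per cell cannot be told apart.

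Differences were tested within a table with limma on log2(TPM + 1). All log2 differences below are on that scale, which understates changes of low genes. A gene was called at a Benjamini-Hochberg adjusted p under 0.05 over all genes tested, which were 12018 for sorted subsets, 14372 for ionomycin and 13689 for antibodies. All 9 members passed the minimum mean level of 1 TPM in each. An exact permutation test of 3 libraries against 3 cannot fall below a two-sided p of 0.1, so calls rest on the model.

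Ptpn6 (ENSMUSG00000004266), the gene of SHP-1, split the sorted subsets into a low and a high set. WT TP libraries stood at 164, 155 and 133 TPM. WT SP libraries stood at 122, 192 and 119.9 TPM. WT TN libraries were far above them, at 357, 298 and 266 TPM. In B2m-/- mice all subsets were high, with TP libraries at 356, 328 and 376 TPM. B2m-/- SP libraries followed at 326, 328 and 289 TPM, and B2m-/- TN libraries at 363, 309 and 270.5 TPM. Thus the 6 WT TP and SP libraries (119.9 to 192 TPM) lay below all 12 other libraries (266 to 376 TPM), with no overlap. Low Ptpn6 was found where MHC class I was present and the cells carried Ly49I, with or without Ly49C and NKG2A. No subset with Ly49C or NKG2A but without Ly49I was sorted.

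**Figure D1:**
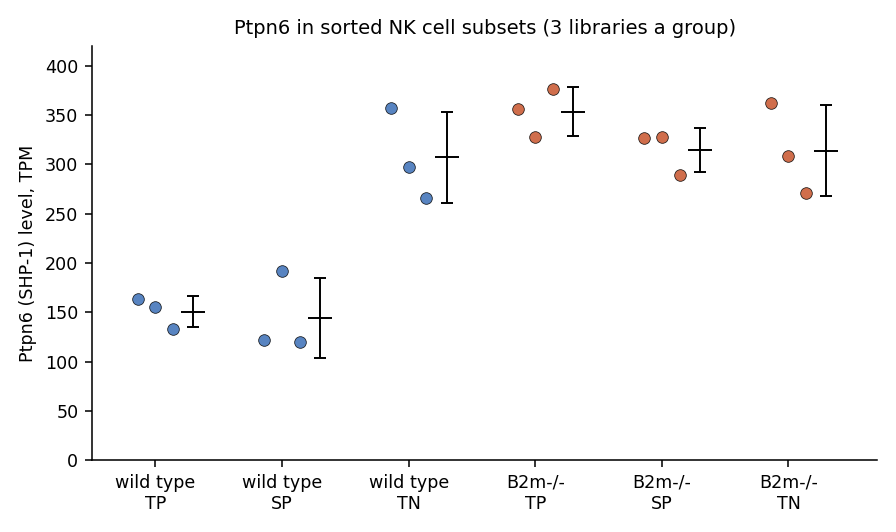
Ptpn6 level in TPM in each library of the 6 sorted groups (dots; blue WT, orange B2m-/-), with the mean and SD of 3 libraries beside them. The 6 WT TP and SP libraries sit at 119.9 to 192 TPM, below every other library.

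Between WT TN and TP cells, which differ in all 3 sorted receptors, 2 of 9 members were called, Ptpn6 and Fyn, both higher in TN cells. For all genes tested, 1.31% were called. Ptpn6 rose from 151 ± 16.0 to 307 ± 46.3 TPM (SD, n = 3 each), a log2 difference of 1.02 (SE 0.16, limma adjusted p 0.00209). It was called under all 13 alternative settings. WT SP and TP cells share Ly49I and differ in Ly49C and NKG2A. No member was called between them (0 of 9, against 0.191% of genes, and 1 member at an unadjusted p under 0.05, against 7.71% of genes). The Ptpn6 difference between WT SP and TP was -0.09, with a 95% confidence interval of -0.43 to 0.25. From WT SP (145 ± 40.7 TPM) to WT TN cells Ptpn6 rose by 1.11 on the log2 scale (SE 0.16, limma adjusted p 0.00356). It was the only member called there, 1 of 9 beside 0.383% of genes. With the 2 compared groups alone in the fit that call was lost (adjusted p 0.203). Groups lay apart for 2 of 9 members in TN against TP, 2 in SP against TP and 4 in TN against SP, where 14.6%, 10.6% and 11.4% of genes did so.

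Within B2m-/- mice Ptpn6 was high in every subset. Its means were 353 ± 24.5 TPM in TP, 314 ± 22.0 TPM in SP and 314 ± 46.3 TPM in TN cells (SD, n = 3 each), and all pairs of subsets overlapped in range. The log2 differences were -0.18 for TN minus TP (95% interval -0.52 to 0.16), -0.17 for SP minus TP and -0.01 for TN minus SP. No member was called in these comparisons by limma (0 of 9 in each, 0 at an unadjusted p under 0.05), where 0.524%, 0.2% and 0.0416% of genes were called and 6.43%, 2.93% and 2.77% had an unadjusted p under 0.05. Groups lay apart for 1, 1 and 0 of 9 members, where 13.2%, 10.9% and 10.9% of genes did so.

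Loss of B2m went with higher Ptpn6 in the receptor-bearing subsets. In TP cells the B2m-/- level exceeded the WT level by 1.23 on the log2 scale (SE 0.16, limma adjusted p 0.000239). In SP cells the excess was 1.15 (SE 0.16, limma adjusted p 0.000616). Both were called under all 13 alternatives, and in both Ptpn6 was the only member called, 1 of 9, where 1.59% and 1.35% of genes were called. In TN cells the genotypes differed by 0.03, with a 95% interval of -0.31 to 0.37, and none of the 9 members was called against 0.716% of genes (1 at an unadjusted p under 0.05, beside 10.5% of genes). The difference of these differences was tested directly. The TN minus TP change was smaller in B2m-/- than in WT cells by 1.20 on the log2 scale (95% interval of the interaction -1.68 to -0.72, unadjusted p 6.73e-05). It ranked 10 among 12018 genes but was not called, at a limma adjusted p of 0.0808, with 0.0728 to 0.254 under the alternatives. No member was called for this interaction (0 of 9, 1 at an unadjusted p under 0.05), and 0.025% of genes were, with 6.27% at an unadjusted p under 0.05. The corresponding TN minus SP interaction of Ptpn6, a contrast added after the data were seen, was -1.12 (adjusted p 0.335), with 0 of 9 members and 0.0% of genes called, and 1 member and 5.62% of genes at an unadjusted p under 0.05. Without WT SP replicate 2, the highest Ptpn6 value of its group, it was called at an adjusted p of 0.0263. The SP minus TP interaction of Ptpn6 was -0.08, again with 0 of 9 members called (0 at an unadjusted p under 0.05) beside 0.0166% of genes (4.41% at an unadjusted p under 0.05).

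Markers of other cells were read in the same libraries. In WT TN cells, where Ptpn6 was high, the 4 neutrophil markers were at 0 in all 3 libraries. The 3 plasma cell markers summed to at most 13.1 TPM there, with Sdc1 at 0. In B2m-/- SP and TN cells, also high in Ptpn6, the plasma and neutrophil sums stayed at or below 2.47 TPM. Only B2m-/- TP cells joined high Ptpn6 with these transcripts. Their neutrophil sums were 38.0 to 168.5 TPM and their plasma sums 83.9 to 188 TPM. Not every marker of these lists was raised in that group, with Sdc1 at most 0.1 TPM and Ly6g at most 0.51 TPM. The 5 macrophage and monocyte markers of B2m-/- TP cells summed to 28.1 to 60.2 TPM, against 18.8 to 21.8 TPM in WT TP cells. The part of these transcripts in that group's Ptpn6 value was not tested. Among the 6 B cell markers, Ighm ran from 125 to 291 TPM and was highest in WT TN cells, while the other 5 summed to at most 10.0 TPM in any subset library. The part of Ighm-bearing RNA in the WT TN value was not tested. The 7 T cell markers summed to at most 17.6 TPM. The NK markers themselves summed to 19300.4 to 20461 TPM in WT TP and to 16654 to 17154 TPM in WT TN cells. Among these NK markers, Eomes was higher in WT TN cells without overlap and Klrb1c overlapped, while the rest were lower without overlap.

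Ptpn11, the gene of the related phosphatase SHP-2, stayed between 54.0 and 74.7 TPM over all 18 subset libraries, and its largest log2 difference in any of the 9 subset comparisons was 0.12. The ratio of Ptpn6 to Ptpn11 was 2.42 ± 0.10 in WT TP and 2.19 ± 0.443 in WT SP cells. It was 4.74 ± 0.657 in WT TN cells and 5.52 ± 0.618, 4.52 ± 0.670 and 4.69 ± 0.822 in B2m-/- TP, SP and TN cells (SD, n = 3). The lowest ratio in the high groups, 3.77, was above the highest in the low groups, 2.63.

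Inpp5d, which encodes the lipid phosphatase SHIP-1, ranged from 196 to 277 TPM over the 18 libraries. WT TN cells held 241 ± 13.1 TPM and WT TP cells 256 ± 12.1 TPM (SD, n = 3), a log2 difference of -0.09 with a 95% interval of -0.31 to 0.14. The order of these phosphatase genes differed between groups. Inpp5d was above Ptpn6 without overlap in WT TP and SP cells, and Ptpn6 was above Inpp5d without overlap in the other 4 groups.

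The promoter window at the outermost annotated Ptpn6 start is printed because Ptpn6 is the member with the clearest subset difference. The letters are RefSeq sequence of build GRCm38.p6 at the gene's outermost start, upstream bases only, minus strand, chr6:124738715-124738959. RefSeq promoter windows matched 8 of the 9 members. Capitals mark matches on either strand to GGAAA (the NFAT core) and GGGCGG (the GC box).
Ptpn6: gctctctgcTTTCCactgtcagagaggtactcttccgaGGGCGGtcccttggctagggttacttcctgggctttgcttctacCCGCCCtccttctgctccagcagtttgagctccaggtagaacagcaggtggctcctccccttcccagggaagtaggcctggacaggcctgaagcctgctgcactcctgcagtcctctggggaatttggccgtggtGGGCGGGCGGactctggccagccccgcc
The 245 bases held 4 matches to GGGCGG, of which the pair nearest the start overlaps, and 1 to GGAAA. Windows of this length held GGGCGG in 32.1% and GGAAA in 54.8% of 32851 mouse promoters. The Runx letters TGTGGT and the AP-1 letters TGANTCA had 0 matches, with shares of 13.9% and 6.66% over all promoters. A match is a description of letters, and the TPM do not say which start was used. This window may thus not be the one used in NK cells. The antisense gene Gm20531 overlaps Ptpn6 in the annotation, and whether counting used strand is not given in the sources used here.

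Among the kinases, Lck and Fyn were the abundant members and Lyn the scarce one. In every subset group Ptprc was highest, followed by Lck, Fyn and Csk, each step between these 4 without overlap. Ptpn11 and Lyn were lowest in every subset group, and their ranges overlapped except in WT SP cells. Lck, the kinase best known from T cell receptor signalling, ranged from 740 to 1047 TPM. Lck was 14.2 to 17.6 times Lyn by group mean of the per-library ratio.

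Fyn (ENSMUSG00000019843), a kinase that also works with the SAP adaptor below SLAM receptors, rose by a small step. WT TP libraries held 599.8, 569.8 and 635 TPM, and WT TN libraries 722, 699.7 and 753 TPM. The groups did not overlap, and the log2 difference was 0.27 (SE 0.06, limma adjusted p 0.0347). This call was lost in 6 of 13 alternatives, including without WT TP replicate 1 or 2 and without WT TN replicate 1 or 3 (adjusted p up to 0.351 over all alternatives). WT SP libraries, at 673, 679 and 644 TPM, lay between TP and TN without overlap, and neither step was called (log2 differences 0.15 and 0.12). In B2m-/- cells Fyn averaged 693 ± 21.0 TPM in TP, 726 ± 41.0 TPM in SP and 744 ± 5.69 TPM in TN cells. The B2m-/- minus WT difference in TP cells was 0.21, with groups apart, at an adjusted p of 0.127. Antisense genes such as Gm16364 overlap Fyn, with the same reservation on strand.

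Lyn, a kinase known for raising inhibitory signals in B and myeloid cells, had the widest spread within a sorted group, with a coefficient of variation of 35.6% in WT TN cells. WT TN replicate 1 stood at 101 TPM beside 65.2 and 50.8 TPM in its group. WT SP cells had the lowest mean, with libraries at 49.8, 45.2 and 51.1 TPM. The WT TN minus SP difference was 0.51 (adjusted p 0.304), and the groups overlapped. Csk, the kinase that restrains the Src family, ranged from 403 to 599.9 TPM with no called difference, and its largest was 0.19, from WT TP to TN cells.

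Ptpn22 (ENSMUSG00000027843) was higher in every B2m-/- group mean than in the WT groups. WT libraries ran from 269 to 369.5 TPM and B2m-/- libraries from 356 to 480.4 TPM. In TP cells WT libraries stood at 356, 269 and 366 TPM and B2m-/- libraries at 418, 480.4 and 423 TPM, apart from each other. The log2 difference was 0.42 (SE 0.13, adjusted p 0.127), not called under any of 13 alternatives. In TN cells it was 0.36 (adjusted p 0.285, groups apart), and in SP cells 0.25 (adjusted p 0.453, groups overlapping). Ptprc, whose product CD45 is the main phosphatase of the leukocyte surface, pointed the other way. Its B2m-/- minus WT differences in the TP, SP and TN subsets were -0.06, -0.18 and -0.10, none called (lowest adjusted p 0.23). The members whose groups did not overlap between genotypes numbered 3 of 9 for TP, 4 for SP and 2 for TN, where 18.3%, 18.9% and 13.7% of all genes were so.

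**Figure D2:**
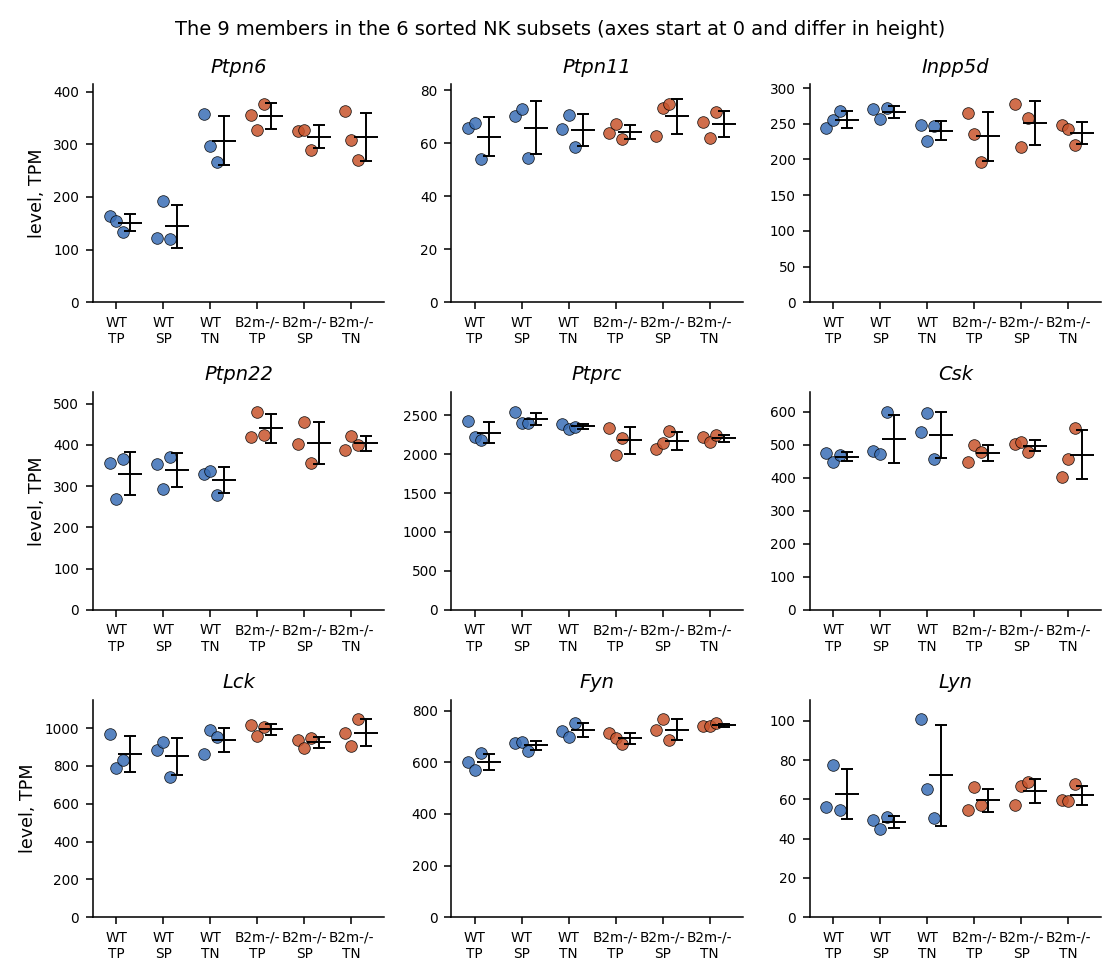
Levels in TPM of the 9 members in each library of the 6 sorted groups (dots; blue WT, orange B2m-/-), with mean and SD of 3 libraries. Ptpn6 shows 2 levels without overlap, and Ptpn22 has higher means in B2m-/- groups.

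**Figure D3:**
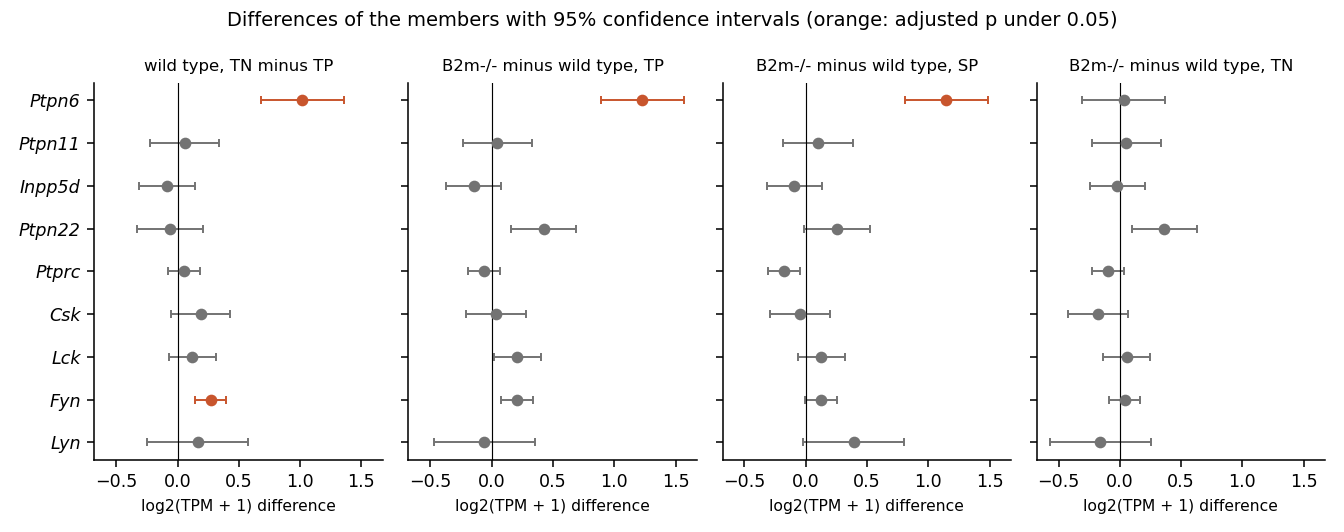
Log2(TPM + 1) differences of the 9 members in 4 comparisons, with 95% confidence intervals from limma. Orange marks an adjusted p under 0.05, which Ptpn6 reached in 3 panels and Fyn in 1, and the interval of Ptpn6 in TN cells spans 0.

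Other genes of the same circuitry were read from 4 lists of 53 genes in all (11 on the Src and Csk axis, 15 tyrosine phosphatases, 17 phosphoinositide and SHIP partners and 10 targets of inhibitory signalling), of which 48 were tested in the sorted subsets. Between WT TN and TP cells 1 of the 48 was called (beside 1.31% of all genes), Pik3r1, the regulatory subunit gene of class I PI3 kinase, which rose by 0.43 (adjusted p 0.0367) and was called in 3 of 13 alternatives, in none of those with 1 library left out. Between genotypes, 2 of 48 were called in TP cells, 3 in SP cells and 1 in TN cells, where 1.59%, 1.35% and 0.716% of all genes were called. Pik3r1 was higher in B2m-/- cells by 0.75 in TP (adjusted p 0.000239) and 0.59 in SP (adjusted p 0.003). Pik3r1 kept its TP call in all 13 alternatives and lost its SP call with the compared groups alone (adjusted p 0.0557). Its WT TP libraries stood at 243, 239 and 209 TPM, and its B2m-/- TP libraries at 407, 359 and 399 TPM. Pik3r5, a regulatory subunit of PI3 kinase gamma, was higher in B2m-/- cells by 0.53 in TP (adjusted p 0.00217), by 0.48 in SP (adjusted p 0.00531) and by 0.45 in TN cells (adjusted p 0.0145). The TP call held in all 13 alternatives. The SP call was lost with the compared groups alone (adjusted p 0.0522). The TN call was lost in 5 of 13 alternatives (adjusted p up to 0.235), among them those without WT TN replicate 2 and without B2m-/- TN replicate 2 or 3. Ubash3b, the gene of the phosphatase Sts-1, was lower by 0.49 in SP cells (adjusted p 0.0485), a call lost with any 1 library left out. The median difference of the 48 genes was -0.08, -0.10 and -0.03 for the TP, SP and TN subsets, beside 0.04, 0.03 and 0.02 for all genes tested. In the 5 other comparisons of subsets within a genotype, 0 of 48 were called, with 0 to 10 at an unadjusted p under 0.05, where 2.77% to 12.1% of all genes stood.

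Ptpn22 rose with ionomycin and was the only member called. Vehicle libraries stood at 316, 482 and 616 TPM, and ionomycin libraries at 1609, 1704 and 1396 TPM. All 3 treated libraries were above all 3 controls. The mean went from 472 ± 150.2 to 1569.8 ± 157 TPM (SD, n = 3), a log2 difference of 1.78 (SE 0.26, limma adjusted p 0.0108). This was 1 of 9 members called, beside 2.91% of all genes. The direction held in all 12 alternatives, with differences of 1.52 to 2.00. The call was lost without a minimum level (adjusted p 0.0501), without a variance trend (0.0764) and without ionomycin replicate 1, 2 or 3 (0.0807, 0.0896 and 0.0817). With ionomycin, Ptpn22 stood second among the members, below Ptprc and above Fyn without overlap. With vehicle, its range overlapped those of Fyn and Lck. Summed NK marker levels were 6555 to 12717 TPM with vehicle and 4956 to 6326 TPM with ionomycin, but the single markers did not move together. Gzma, the largest, went from 6271, 5833 and 3222 TPM to 1344, 867 and 1017 TPM, and Ncr1 and Klrb1c were also lower without overlap. Eomes was higher without overlap, from 160, 322 and 431 TPM to 587, 801 and 710 TPM. Nkg7, Prf1, Tbx21 and Itgam overlapped. The 7 T cell markers summed to 2.24 to 7.87 TPM with vehicle and 13.2 to 25.3 TPM with ionomycin, with Cd4, Cd8a and Cd8b1 at 0 in all 6 libraries. Neutrophil transcripts were found in replicate 3 of both groups (4 markers summing to 265 and 118 TPM). S100a8 and S100a9 were at 0 in the other 4 libraries, in which Ptpn22 stood at 316 and 482 TPM with vehicle, against 1609 and 1704 TPM. The part of these marker differences in the Ptpn22 value was not tested.

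The promoter window at the start of the main protein-coding Ptpn22 transcript is printed because Ptpn22 responded to a calcium ionophore, and the core letters of the calcium-activated factor NFAT were among those searched. It is RefSeq sequence of build GRCm38.p6, upstream bases only, plus strand, chr3:103860027-103860276. Capitals mark matches on either strand to GGAAA (NFAT core) and TGTGGT (Runx).
Ptpn22: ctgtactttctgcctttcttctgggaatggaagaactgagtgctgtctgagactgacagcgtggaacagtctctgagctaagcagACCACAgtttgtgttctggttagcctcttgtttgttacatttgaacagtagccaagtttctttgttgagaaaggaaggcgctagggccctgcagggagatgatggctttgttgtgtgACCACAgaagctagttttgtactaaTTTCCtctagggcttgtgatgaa
The 250 bases held 1 match to GGAAA, 23 bases before the start, and 2 to TGTGGT, with 0 to TGANTCA and GGGCGG. A second window, before another annotated Ptpn22 start (chr3:103859545-103859794), held 0 matches to any of these 4. Over all 32851 promoters of this length 55.6% hold GGAAA and 14% hold TGTGGT. A match to such short letters is a description only.

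The other 8 members were not called with ionomycin. Vehicle libraries held Inpp5d at 101, 167 and 201 TPM, and ionomycin libraries at 104, 99.7 and 102 TPM. Vehicle replicate 1 was thus level with the treated libraries, and the log2 difference was -0.56 (95% interval -1.19 to 0.08, adjusted p 0.412). For Ptpn6 the vehicle libraries, at 67.4, 90.8 and 116 TPM, overlapped the ionomycin libraries, at 34.0, 95.6 and 114 TPM, with a difference of -0.30 (95% interval -1.32 to 0.71). Csk went from 285, 182 and 439.5 TPM to 453, 467 and 416 TPM, overlapping, a difference of 0.65 (adjusted p 0.372). Lyn, Lck, Fyn, Ptprc and Ptpn11 had differences of 0.63, 0.26, 0.26, 0.25 and 0.09, at adjusted p from 0.517 to 0.916. Vehicle replicate 1 was the lowest of the vehicle libraries for Ptprc (1290 TPM against 2984 and 3030), Fyn (364 TPM against 758 and 673), Lyn, Lck, Inpp5d, Ptpn6, Ptpn11 and Ptpn22. Non-overlap was found for 1 of the 9 members and for 20.1% of all genes.

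**Figure D4:**
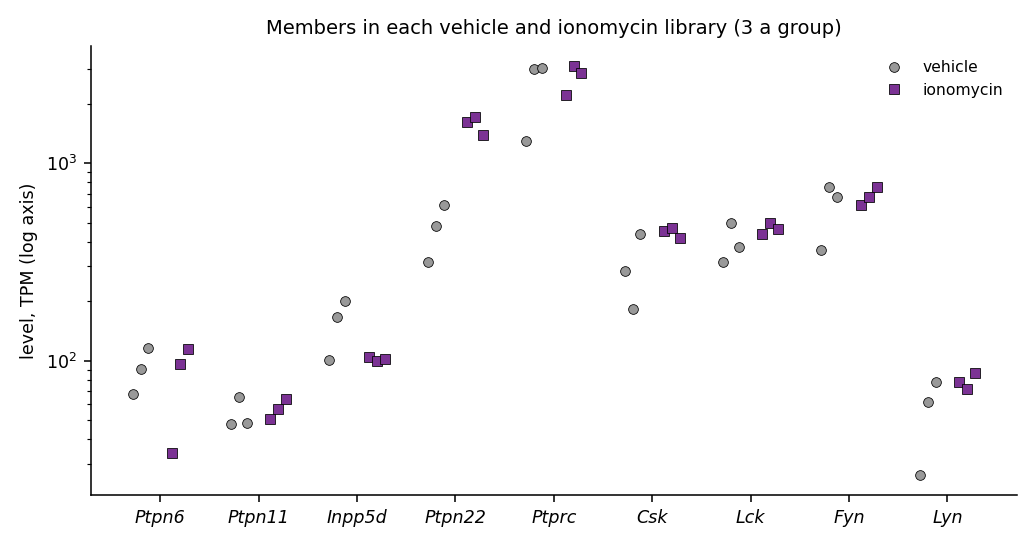
Levels in TPM, on a log axis, of the 9 members in each of 3 vehicle libraries (grey circles) and 3 ionomycin libraries (purple squares). Only for Ptpn22 do the groups lie apart, at 316 to 616 against 1396 to 1704 TPM.

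The wider pathway lists were read with ionomycin too. Of 47 genes tested, 9 were called, 3 higher and 6 lower, where 2.91% of all genes were called, and the median difference of the 47 was -0.26 beside -0.00 for all genes. Among the phosphatases, Ubash3b rose from 14.8, 26.2 and 37.2 TPM to 224, 256 and 297 TPM (log2 difference 3.35, adjusted p 0.00294). Its relative Ubash3a, the gene of Sts-2, fell from 38.7, 14.2 and 65.2 TPM to 1.84, 0.00 and 2.01 TPM (-4.06, adjusted p 0.0215). Ptpre, the gene of receptor-type phosphatase epsilon, fell from 118, 84.6 and 52.6 TPM to 4.60, 4.37 and 3.85 TPM (-3.96, adjusted p 0.00293). Pik3r1 rose by 2.33 (adjusted p 0.0263), Cblb, a ubiquitin ligase that limits activation, rose by 1.54 (adjusted p 0.0452), and Dok2, an adaptor that binds SHIP-1, fell by 1.46 (adjusted p 0.0255). Ubash3b and Ptpre were called under all 12 alternatives, while the other 4 were lost in at least 5. On the Src and Csk axis 0 of 7 tested genes were called, and 5 of the 7 had an unadjusted p under 0.05, as did 15.1% of all genes. The median difference of the 7 was -1.11.

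Antibodies to activating receptors left all 9 members uncalled. Against medium, the NKG2D pair (NKp46 with NKG2D) gave 0 of 9 members and 0.431% of genes called, with 0 members and 15.1% of genes at an unadjusted p under 0.05. The DNAM-1 pair (NKp46 with DNAM-1) gave 0 of 9 members and 0.782% of genes, with 1 member and 18.0% of genes at an unadjusted p under 0.05. Ptpn6 had the largest differences. Medium libraries stood at 245, 199 and 130.1 TPM. With the NKG2D pair they stood at 142, 140.2 and 123 TPM, and with the DNAM-1 pair at 112, 140.4 and 114 TPM. Medium replicate 3 fell within the range of both treated groups, while the other medium libraries were above every treated one. The log2 differences were -0.45 (95% interval -0.91 to 0.01, limma adjusted p 0.335) and -0.60 (-1.06 to -0.14, limma adjusted p 0.183). Without medium replicate 3 they were -0.71 (adjusted p 0.0481) and -0.86 (adjusted p 0.0256), both called. Grouping libraries by title in place of column name gave 0.00 for the NKG2D pair (adjusted p 1.0), so the direction itself rests on which label is right. For the DNAM-1 pair, title groups gave -0.36, the smallest difference among the alternatives, and it was not called.

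Ptpn11 ran the other way. Medium libraries stood at 41.5, 48.5 and 47.5 TPM, below those with the NKG2D pair at 48.9, 53.9 and 55.2 TPM and with the DNAM-1 pair at 53.7, 61.5 and 53.1 TPM. With libraries grouped by column name the groups were apart, but the differences of 0.20 and 0.29 were not called (limma adjusted p 0.525 and 0.31). Grouped by title, Ptpn11 stood at 41.5, 53.7 and 48.9 TPM in medium. The NKG2D pair then stood at 48.5, 61.5 and 53.9 TPM and the DNAM-1 pair at 47.5, 53.1 and 55.2 TPM. Both overlapped medium. The remaining values of this paragraph are by column name. The ratio of Ptpn6 to Ptpn11 was 4.25 ± 1.59 in medium, 2.58 ± 0.339 with the NKG2D pair and 2.17 ± 0.102 with the DNAM-1 pair (SD, n = 3). Its range in medium (2.74 to 5.91) overlapped that with the NKG2D pair (2.23 to 2.91). It did not overlap that with the DNAM-1 pair (2.08 to 2.28). These comparisons share the medium libraries. Ptpn22, which rose with ionomycin, differed by 0.05 and -0.15 here, with 95% intervals of -0.16 to 0.27 and -0.37 to 0.06. The remaining members differed by at most 0.16 in size. Groups lay apart for 1 and 3 of 9 members, where 17.3% and 21.1% of all genes did so. Between the antibody pairs 0 of 9 members and 0.0146% of genes were called, with 0 members and 1.22% of genes at an unadjusted p under 0.05. Groups lay apart for 2 of 9 members and 7.42% of genes. Of the listed pathway genes, 0 of 47 were called in any antibody comparison (0 to 7 at an unadjusted p under 0.05).

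**Figure D5:**
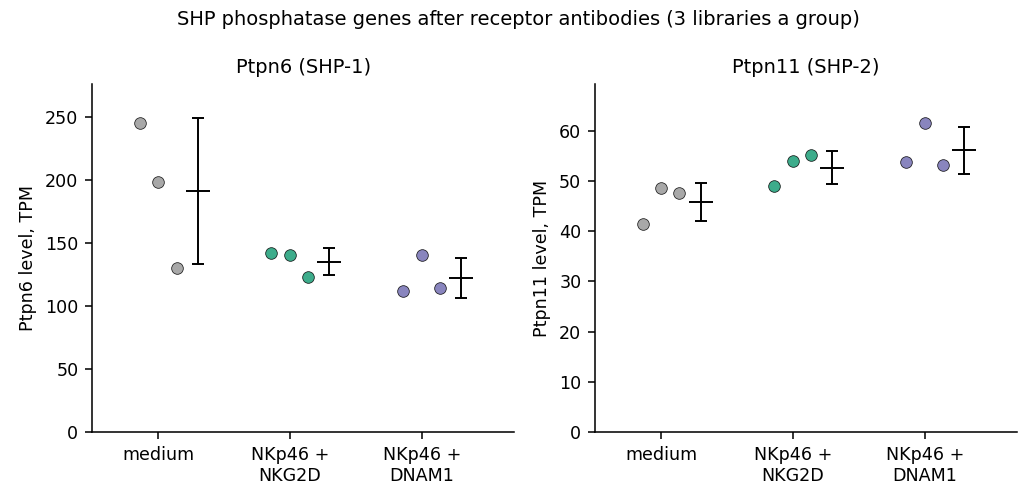
Ptpn6 and Ptpn11 levels in TPM in each library (dots) after 48 h in medium or with plate-bound antibody pairs, with mean and SD of 3 libraries, grouped by column name. Ptpn6 spans 130.1 to 245 TPM in medium and 112 to 142 TPM with antibodies, and Ptpn11 lies higher with antibodies.

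NK cells from B2m-/- MC38 tumours form a single group in their table, so their levels are a description. Ptprc was highest at 2154 ± 104 TPM (SD, n = 3). Ptpn22 came second, at 622, 666 and 528 TPM, above Lck (360.0 ± 27.3 TPM) without overlap. Fyn was at 344 ± 42.9, Csk at 266 ± 49.6 and Inpp5d at 249.7 ± 49.8 TPM, neighbours whose ranges overlapped. Ptpn6 libraries stood at 245, 213 and 156 TPM. Lyn (54.0 ± 3.57 TPM) and Ptpn11 (43.7 ± 4.43 TPM) were lowest, in that order, without overlap. Stromal RNA differed between these libraries, with Col3a1 at 31.0, 910.2 and 739 TPM, and its part in the members' levels was not tested. Column names for these libraries carry B2MKO and SP, which the titles do not use, and the titles were followed. B2m itself stood at 3929 to 5196 TPM in them.

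The genes most like each called member over the 18 subset libraries were taken by Pearson correlation of log2(TPM + 1), as a description over libraries that share groups. For Ptpn6 they were Sla (r = 0.891), the gene of the Src-like adaptor protein, Mcm6 (0.889) and S1pr1 (0.873). Sla averaged 192 and 213 TPM in WT TP and SP cells and 347 to 397 TPM in the other 4 groups. For Fyn they were Klra7 (0.928, a Ly49 gene whose reads can be shared within its family), Cd27 (0.886) and Sla (0.879). For Ptpn22 they were Erdr1 (0.881), Klhl6 (0.846) and Twnk (0.840). Among the members themselves the closest to Ptpn6 was Fyn (r = 0.699, n = 18).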

How the data were processed

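RNA-seq was done on 36 mouse NK cell libraries. The authors deposited 4 tables of TPM. The submitters' processing notes name STAR, RSEM and the genome build GRCm39, without versions. Per the labels' protocols, RNA with an integrity score over 7 entered the KAPA mRNA HyperPrep kit. TPM keep no sequencing depth, so precision comes from the spread of 3 libraries. Groups came from sample titles, except in the antibody table, where column names were used. Each table has 1 batch date, and groups were compared only within a table.

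TPM were tested as log2(TPM + 1) with limma 3.58.1 in R 4.3.3, with all groups of a table in a fit, a variance trend, two-sided tests and Benjamini-Hochberg adjustment over the genes whose mean level reached 1 TPM. The minimum was applied anew to the libraries of each fit. The procedure was run on simulated data with independent noise for each gene and no shared library effects. Changes as small as that of Fyn were not simulated, so the simulation does not vouch for the calls made here. Alternatives covered the minimum level, a pseudocount of 0.1, median-of-ratios and quantile scaling, the variance trend, the groups in the fit, a replicate block, title groups and each library left out. The members and lists were chosen with earlier results of these data known. Pathway genes are named where called, at most 6 a comparison by size. Promoter letters are RefSeq's, build GRCm38.p6. No protein sequences were used here.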

Additional observations from a re-analysis of the deposited data

How the results depend on the processing

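Ptpn6 kept its direction and its call in all 13 alternatives for WT TN minus TP and for B2m-/- minus WT in TP and SP cells, with log2 differences of 0.90 to 1.37. The count of members called between WT TN and TP cells fell from 2 to 1 without a variance trend and with the compared groups alone, and was 1 to 2 with 1 library left out, through Fyn. Between WT TN and SP cells it fell from 1 to 0 with the compared groups alone. With ionomycin it fell from 1 to 0 without a minimum level and without a variance trend, and was 0 to 1 with 1 library left out. For the TN minus SP interaction, and for each antibody pair against medium, 0 became 1 in 1 fit, without WT SP replicate 2 or without medium replicate 3, so these counts were 0 to 1. Grouping by title reversed the sign of Ptpn6 with the NKG2D antibody pair, at 0.001. The causes were not tested.

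Groups share replicate numbers, and pairing was accepted only if every same-numbered pair had a correlation of deviations over 0.1. It was so for 1 of 3 ionomycin pairs, 1 of 9 antibody pairs and 0 of 9 subset pairs in each genotype. This rule is strict with 3 libraries a group, so failing it does not show that the libraries were unpaired. Same-numbered pairs averaged 0.062 (ionomycin) and 0.064 (antibody). Other pairs averaged -0.031 and -0.032, values that centring within groups ties to the same-numbered ones. With the replicate block, Ptpn6 differed by 1.02 between WT TN and TP cells (adjusted p 0.00262), Fyn by 0.27 (adjusted p 0.0482) and Ptpn22 by 1.78 with ionomycin (adjusted p 0.0139), and the number of members called was the same as without it in all 16 comparisons. Over all genes the block moved the calls against medium from 59 to 239 and from 107 to 528, with Ptpn6 still uncalled (adjusted p 0.213 and 0.096). The call of Pik3r1 between WT TN and TP cells was lost (adjusted p 0.0617).

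Members that were not called kept their direction under the alternatives in 108 of 126 values for the NKG2D pair against medium and 104 of 117 for B2m-/- TN minus SP, the lowest shares, and in 101 of 104 for B2m-/- minus WT in SP cells, the highest. With 3 libraries a group and unknown depth, an uncalled difference does not show equal levels.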
